A study of Mus musculus with 18 samples.

Results

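The MHC class II genes were described across whole spleen and splenic macrophages of mice that had breathed fine particles or filtered air. They comprised 10 genes chosen by symbol: H2-Aa, H2-Ab1, H2-Eb1, H2-DMa, H2-DMb1, H2-DMb2, H2-Oa, H2-Ob, Cd74 and Ciita. All 10 were found among the 55414 genes of the count table, and all 10 passed the filter on low counts in each comparison. On build GRCm38, 8 of them lie in the MHC locus on chromosome 17, among them H2-Oa (chr17:34092340-34095234, plus strand) and H2-Ob (chr17:34238903-34254414, plus strand). Ciita lies on chromosome 16 (chr16:10480059-10528418, plus strand) and Cd74 on chromosome 18. Polyadenylated RNA had been sequenced from wild-type C57BL/6J mice, with 18 libraries in 4 groups. Macrophages isolated from the spleen came from mice exposed to PM2.5 (n = 5) or to filtered air (n = 5), and whole spleens came from mice exposed to PM2.5 (n = 4) or to filtered air (n = 4). PM2.5 is fine airborne particulate matter, and the labels of the exposed groups call the treatment CAP, an abbreviation that they do not expand. Every label gives 30 days. For the macrophage experiment the labels also mention filtered air following the exposure, without a duration, and they state neither the age or sex of the mice nor how the macrophages were isolated. The samples are labelled biological replicates, and nothing says whether animals were pooled.

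MHC class II molecules carry peptides from engulfed proteins to the surface of antigen-presenting cells, where CD4 T cells read them. In the spleen the pathway is best known from B cells, dendritic cells and subsets of macrophages. H2-Aa and H2-Ab1 encode the alpha and beta chains of the classical molecule I-A, and H2-Eb1 encodes the beta chain of I-E. Cd74 encodes the invariant chain, which holds the peptide groove until the molecule reaches the endosome. H2-DMa pairs with H2-DMb1 or H2-DMb2 to form H2-M, which exchanges the remnant of the invariant chain for peptide. H2-Oa and H2-Ob encode H2-O, an inhibitor of H2-M that is known mainly from B cells. Ciita encodes the transactivator that switches the set on. It does not bind DNA itself but docks onto proteins that occupy a conserved pair of promoter elements, the X box and the Y box. Mice of the C57BL/6 background lack a functional alpha chain of I-E, so H2-Eb1 is transcribed without its partner. The annotated pseudogene of that chain, H2-Ea-ps, had 0 to 8 counts per library in macrophages and 0 to 28 in spleens.

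The promoters of 4 class II genes are shown because they carry both elements in 1 arrangement, although 2 of these genes fell and 2 did not pass the test between the preparations described below. Capitals mark CNNNNAAC, letters that match only a part of the X box, and TGATTGG, letters of the Y box. The windows run from 250 bases before to 50 bases after the RefSeq start of the gene on build GRCm38.p6. They lie at chr17:34287774-34288073 on the minus strand, and at chr17:34305617-34305916, chr17:34092129-34092428 and chr17:34238655-34238954 on the plus strand.
H2-Aa: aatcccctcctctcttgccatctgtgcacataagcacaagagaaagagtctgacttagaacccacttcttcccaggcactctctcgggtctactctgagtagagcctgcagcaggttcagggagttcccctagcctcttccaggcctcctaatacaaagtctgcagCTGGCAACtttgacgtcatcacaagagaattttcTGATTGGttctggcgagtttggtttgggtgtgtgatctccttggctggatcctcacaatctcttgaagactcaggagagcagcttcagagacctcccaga
H2-Eb1: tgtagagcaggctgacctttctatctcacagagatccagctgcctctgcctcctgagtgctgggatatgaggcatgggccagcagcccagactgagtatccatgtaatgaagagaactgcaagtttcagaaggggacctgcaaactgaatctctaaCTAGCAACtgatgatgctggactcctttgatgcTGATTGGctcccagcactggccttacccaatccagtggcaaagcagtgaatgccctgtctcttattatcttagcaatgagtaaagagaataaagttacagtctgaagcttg
H2-Oa: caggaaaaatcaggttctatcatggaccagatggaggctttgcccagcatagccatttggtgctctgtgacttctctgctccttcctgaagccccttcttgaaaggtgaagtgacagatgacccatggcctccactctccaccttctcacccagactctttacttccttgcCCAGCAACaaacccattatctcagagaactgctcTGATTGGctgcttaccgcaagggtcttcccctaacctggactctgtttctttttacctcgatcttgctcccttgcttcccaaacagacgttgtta
H2-Ob: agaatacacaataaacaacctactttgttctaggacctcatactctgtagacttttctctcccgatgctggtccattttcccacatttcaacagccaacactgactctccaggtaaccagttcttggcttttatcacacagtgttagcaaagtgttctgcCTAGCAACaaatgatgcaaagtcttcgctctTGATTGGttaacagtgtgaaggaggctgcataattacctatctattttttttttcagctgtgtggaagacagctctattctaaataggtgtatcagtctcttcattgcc

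Windows of 7 of the 10 genes were used, 8 windows in all; H2-Ab1, Cd74 and Ciita were not used here. In 6 of the 7, namely these 4, H2-DMb1 and H2-DMb2, CNNNNAAC was followed by TGATTGG. The gap between these letters, which is not the gap between the whole boxes, measured 23 bases in H2-Ob, 25 in H2-Eb1 and 26 in the other 4 genes. TGATTGG ended 38 bases before the start in H2-Oa and 85 bases before it in H2-DMb2, the nearest and the farthest. Searched on both strands with a gap of 10 to 40 bases, the pair stood in 0.755% of all 32851 promoter windows of the same length. TGATTGG alone stood in 7.82% of them and CNNNNAAC alone in 81.6%. The letters were chosen with these sequences in view. Neither window of H2-DMa held the pair, which says only that these letters are not in those 300 bases.

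Total counts lay between 18848048 and 33844807 per library in PM2.5 macrophages, 18107264 and 29013034 in air macrophages, 18427891 and 19906706 in PM2.5 spleens, and 16493694 and 20352346 in air spleens. The preparations matched their labels. Vcam1, a marker of red pulp macrophages, averaged 5968 ± 758 CPM in air macrophages (SD, n = 5) and 124 ± 40.3 CPM in air spleens (SD, n = 4). CPM are a gene's counts relative to the size of the library, scaled here over all 18 libraries. Transcripts known from other antigen-presenting cells were present in the macrophage libraries. Cd79a of B cells averaged 449 ± 90.5 CPM in air macrophages and 1289 ± 259 CPM in air spleens. Flt3 of conventional dendritic cells averaged 82.9 ± 29.2 CPM in air macrophages and 31.7 ± 4.66 CPM in air spleens. No gene of the B cell, conventional dendritic cell or red pulp macrophage lists was at 0 in any library. In such bulk samples, fewer cells of a type and less RNA per cell cannot be told apart. Spleen air replicates 3 and 4 held the most liver transcripts, with summed levels of 42.6 and 84.3 CPM over 5 liver genes, against at most 7.37 CPM in every other library. PM2.5 spleens ranged from 887 to 13919.5 CPM in the sum of 9 erythroid genes, and replicates 2 and 4 were the highest.

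One library went against its labels and stood apart. Macrophage PM2.5 replicate 1 is a PM2.5 library by title and description, but its treatment field says air. Relative to the other libraries of its group, its 2169 genes with transcripts of at least 5000 bases deviated by a median of -0.47 on the log2 scale. Its 1384 genes with transcripts under 1500 bases deviated by a median of 0.51. In the other 17 libraries these medians lay between -0.12 and 0.11 for long and between -0.21 and 0.22 for short transcripts. The fold changes of the 10 genes after PM2.5 in macrophages are therefore given with and without this library.

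**Figure D1:**
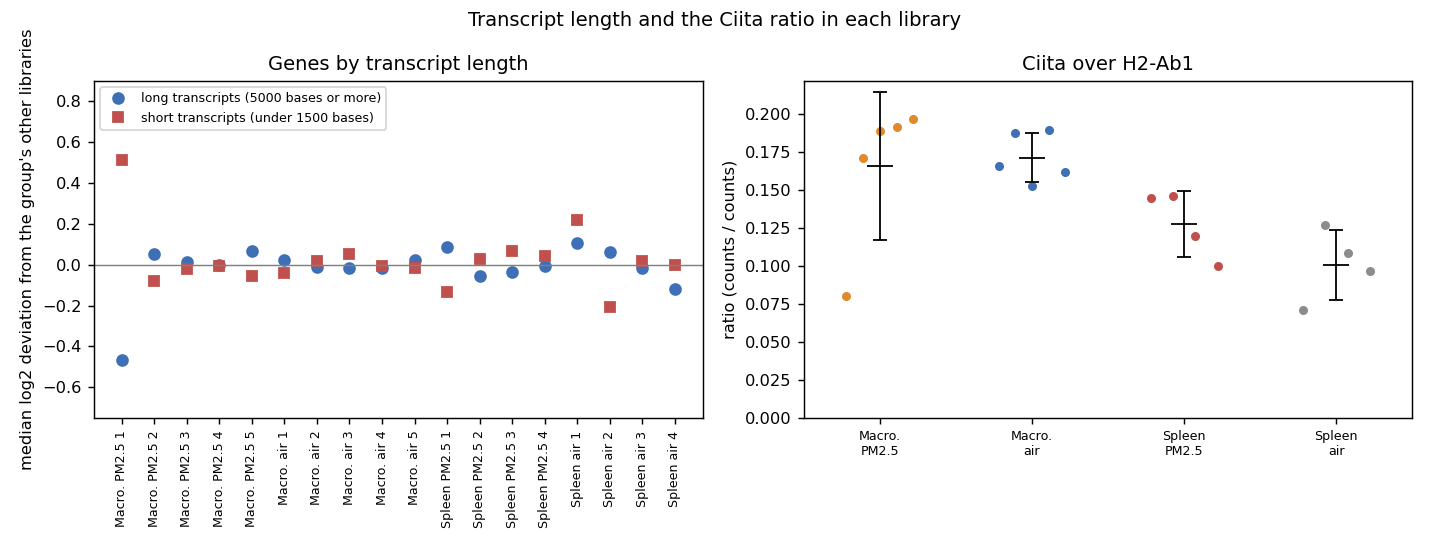
Left, the median log2 deviation of genes with long and with short transcripts from the other libraries of the same group, for each library. Right, the ratio of Ciita to H2-Ab1 counts in each library, with bars for mean and SD. Macrophage PM2.5 replicate 1 is the library with the 2 medians farthest apart, and its ratio of 0.0802 lies below the 0.171 to 0.197 of the other PM2.5 macrophages.

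Per length of transcript, the invariant chain was the most abundant of the 10 and the transactivator the least in every group. Levels between genes are given in TPM over the exonic length of each gene. Cd74 averaged 11404 ± 1367 TPM in PM2.5 macrophages, 13426 ± 3134 TPM in air macrophages (SD, n = 5 each), 9004 ± 1567 TPM in PM2.5 spleens and 7698 ± 2940.3 TPM in air spleens (SD, n = 4 each). Ciita averaged 91.0 ± 24.9 TPM in PM2.5 macrophages, 115 ± 21.2 TPM in air macrophages, 68.1 ± 14.8 TPM in PM2.5 spleens and 52.6 ± 18.7 TPM in air spleens. Between them stood the classical chains, then H2-DMb2, then the other H2-DM genes and the H2-O genes. H2-Eb1 came second in every group, with 3201 ± 909 TPM in air macrophages and 2414 ± 299 TPM in air spleens. H2-Ab1 had 2516 ± 639 TPM in air macrophages and H2-Aa had 1746 ± 475 TPM there. H2-Eb1 lay above H2-Ab1, and H2-Ab1 above H2-Aa, within each of the 5 air macrophage libraries. The order of the 3 classical chains turned with the definition of length. Over the longest coding transcript, H2-Aa came second in every group, with 4255 ± 1110.4 TPM in air macrophages and 4462 ± 511 TPM in air spleens, and H2-Eb1 came last of the 3. The exonic length of H2-Aa is 3798 bases and its longest coding transcript 1128 bases.

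The 2 beta chains of H2-M cannot be separated fully by counting. Of the windows of 50 bases in the longest coding H2-DMb1 transcript, 27.2% also occur in a transcript of H2-DMb2, and of windows of 100 bases 13.7% do. H2-Oa shares 22.8% of its exonic bases with the antisense gene BC051537, and H2-DMa 10.4% with Brd2 on the opposite strand. The strand setting of the counting is not given in the sources used here, so reads of such partners cannot be told apart.

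The first question was whether class II transcripts in the whole spleen differed after PM2.5. None of the 10 passed the threshold, and 8 of the 10 fold changes were below 0 with TMM scaling, the scaling of all values here unless another is named. H2-Oa, the alpha chain of the H2-M inhibitor, had the smallest p. It stood at 122, 105, 131 and 113 CPM in PM2.5 spleens, against 153, 134, 146 and 186 CPM in air spleens. On this CPM scale all 4 PM2.5 spleens lay below all 4 air spleens. In TPM, which carry no TMM factor, the groups overlapped, with 276 ± 44.1 TPM in PM2.5 spleens and 311 ± 48.6 TPM in air spleens (SD, n = 4 each). The log2 fold change was -0.40 (SE 0.130, 95% interval -0.69 to -0.11, adjusted p = 0.170 in edgeR's quasi-likelihood test with Benjamini-Hochberg adjustment). Of all 16551 genes tested, 4.54% had every PM2.5 spleen below every air spleen, and 7.76% had a lower level at an unadjusted p under 0.05. Without spleen air replicates 3 and 4 the log2 fold change of H2-Oa was -0.28 (SE 0.147, adjusted p = 0.689 in edgeR), and with library totals as the scaling it was -0.26 (SE 0.134, adjusted p = 0.353 in edgeR), a scaling under which the median of all genes was 0.15.

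H2-Ob, its partner chain, stood at 673, 463, 684 and 548 CPM in PM2.5 spleens, against 758, 708, 624 and 715 CPM in air spleens. PM2.5 replicates 2 and 4 lay below all air spleens and the other two overlapped them. The log2 fold change was -0.25 (95% interval -0.57 to 0.068). It was -0.032 without PM2.5 replicates 2 and 4, -0.13 without PM2.5 replicate 2 alone and -0.11 with library totals as the scaling.

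Among the classical chains, H2-Aa stood at 2279, 1863, 2346 and 2051 CPM in PM2.5 spleens, against 3348, 2119.6, 2369.5 and 2775 CPM in air spleens. The groups overlapped, and air replicate 1 was the highest spleen library. The log2 fold change was -0.32 (95% interval -0.68 to 0.047, adjusted p = 0.364 in edgeR). H2-Ab1 averaged 1552 ± 167 CPM in PM2.5 spleens and 1725 ± 296 CPM in air spleens (SD, n = 4 each), with a log2 fold change of -0.16. H2-Eb1 averaged 1454 ± 100.5 CPM in PM2.5 spleens and 1661 ± 164 CPM in air spleens, with a log2 fold change of -0.19. The H2-DM genes had log2 fold changes of -0.12 for H2-DMa, -0.24 for H2-DMb1 and -0.20 for H2-DMb2, and their groups overlapped. Without PM2.5 replicates 2 and 4 the values were -0.18 for H2-Aa, -0.098 for H2-Ab1, -0.10 for H2-Eb1, -0.081 for H2-DMa, -0.0039 for H2-DMb1 and -0.013 for H2-DMb2. Without air replicates 3 and 4 they were -0.068 for H2-Ab1, -0.086 for H2-DMa and 0.0075 for H2-DMb2. Without air replicate 1, its highest library, H2-Aa was at -0.19. Without air replicate 4, H2-Ab1 was at -0.025, H2-DMa at -0.048 and H2-DMb2 at -0.060. Without PM2.5 replicate 2, H2-Ab1 was at -0.070, H2-DMa at -0.059, H2-DMb1 at -0.072 and H2-DMb2 at -0.083. With library totals as the scaling, H2-Aa was at -0.17, H2-Ab1 at -0.026, H2-Eb1 at -0.063, H2-DMa at 0.0068, H2-DMb1 at -0.11 and H2-DMb2 at -0.062.

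Cd74 and Ciita were the 2 members with values above 0. Cd74 stood at 4866, 3913, 4447 and 5108 CPM in PM2.5 spleens, against 2949, 5153, 3752 and 6055 CPM in air spleens. The air spleens spanned the whole range of the PM2.5 spleens, and the log2 fold change was 0.026 (95% interval -0.46 to 0.52). Ciita stood at 241, 193, 184 and 169 CPM in PM2.5 spleens, against 114, 211, 161 and 209 CPM in air spleens. These groups overlapped too, with a log2 fold change of 0.18 (95% interval -0.26 to 0.61). With library totals as the scaling, Cd74 was at 0.15 and Ciita at 0.30.

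In this comparison 0 of the 10 genes were called, and 0.0121% of all genes tested were called. At an unadjusted p under 0.05 there was 1 of the 10, H2-Oa, and 16.7% of all genes. DESeq2 and limma-voom called 0 of the 10 as well. The median log2 fold change of the 10 was -0.19, and that of all genes tested was 0.017. Of all genes tested, 48.2% had a fold change below 0. These values depended on the scaling, and the median of all genes moved with that of the 10. With library totals, 7 of the 10 were below 0, their median was -0.062 and that of all genes was 0.15. Without PM2.5 replicates 2 and 4 the median of the 10 was -0.057. The 10 genes together held 1.32% of all counts in both PM2.5 and air spleens (SD 0.160 in PM2.5 spleens and 0.227 in air spleens, n = 4 each). No gene of the B cell, T cell, conventional dendritic cell, red pulp macrophage or erythroid lists was called. All 14 B cell genes had fold changes below 0 with TMM, against 8 of the 14 with library totals, with a median of -0.19 with TMM and 5 of them at an unadjusted p under 0.05. Their summed level was 5306 to 7391 CPM in PM2.5 spleens and 7295 to 8365 CPM in air spleens. Of 8 T cell genes, 7 were below 0 under both scalings, 5 of them at an unadjusted p under 0.05 with TMM. Their summed level was 779.7 to 973 CPM in PM2.5 spleens and 1003 to 1407 CPM in air spleens, without overlap on this scale. Of 10 conventional dendritic cell genes, 8 were above 0 with TMM and 10 with library totals, 3 of them at an unadjusted p under 0.05, and their summed level was 386 to 494 CPM in PM2.5 spleens and 381 to 445 CPM in air spleens. All 10 red pulp macrophage genes were above 0 under both scalings, 7 of them at an unadjusted p under 0.05 with TMM. Their summed level was 591 to 850 CPM in PM2.5 spleens and 340 to 659 CPM in air spleens. All 9 erythroid genes were above 0 under both scalings, 9 of them at an unadjusted p under 0.05 with TMM. Their summed level was 887 to 13919.5 CPM in PM2.5 spleens and 337 to 2866 CPM in air spleens. The part of these cells in the class II values was not tested.

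**Figure D2:**
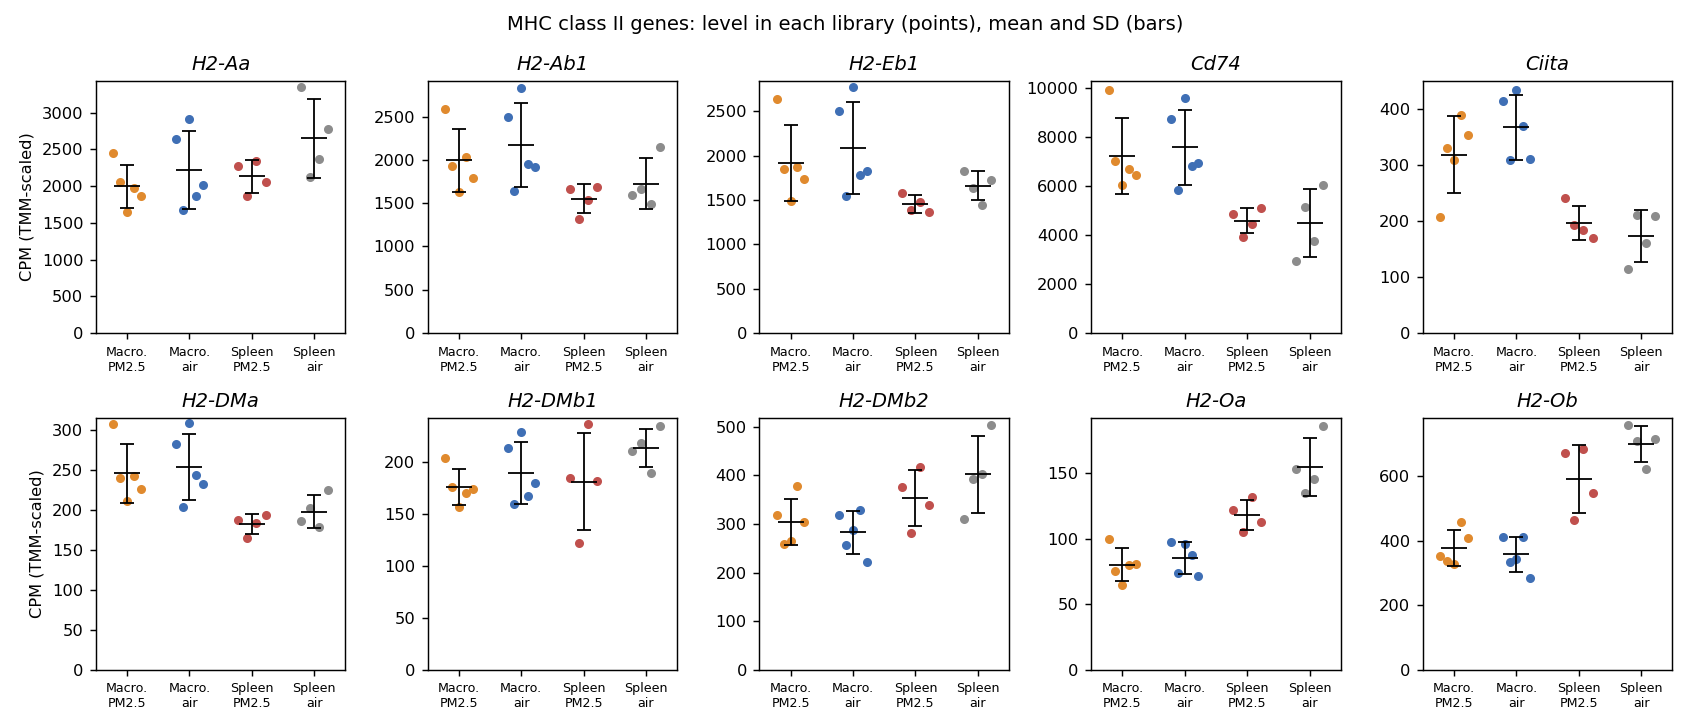
Level of each gene in CPM, scaled over all 18 libraries, on linear axes that start at 0. Points are libraries, and bars give mean and SD for PM2.5 macrophages, air macrophages (n = 5 each), PM2.5 spleens and air spleens (n = 4 each). H2-Oa is the gene for which every PM2.5 spleen lies below every air spleen on this TMM-scaled axis, though not in TPM, and H2-Oa and H2-Ob are lower in every macrophage library than in any spleen library.

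The second question was whether the same transcripts differed after PM2.5 within the isolated macrophages. None of the 10 passed the threshold here either, and the groups overlapped for all 10. Cd74 stood at 9924, 7008, 6048, 6685 and 6456 CPM in PM2.5 macrophages, against 8726, 5851, 9574, 6808 and 6916 CPM in air macrophages. PM2.5 replicate 1 and air replicates 1 and 3 were the 3 high libraries, and the other 7 lay between 5851 and 7008 CPM. The log2 fold change was -0.064 (95% interval -0.44 to 0.31) and -0.22 (SE 0.139) without PM2.5 replicate 1.

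The classical chains were high in the same libraries. H2-Ab1 stood at 2588, 1933, 1635, 2032 and 1793 CPM in PM2.5 macrophages, against 2501, 1647, 2836, 1948 and 1922 CPM in air macrophages. Its log2 fold change was -0.12 (95% interval -0.48 to 0.24) with all libraries and -0.24 (SE 0.151) without PM2.5 replicate 1. H2-Aa had a log2 fold change of -0.15 with all libraries and -0.25 without that library, and H2-Eb1 had -0.12 with all libraries and -0.27 without it. None of these passed the threshold with or without it. Without air replicate 3, one of the high libraries, the values were -0.041 for H2-Aa, -0.0083 for H2-Ab1 and -0.0013 for H2-Eb1, and without air replicate 1, the other, they were -0.080 for H2-Aa, -0.061 for H2-Ab1 and -0.043 for H2-Eb1. Without PM2.5 replicate 3 they were -0.087 for H2-Aa, -0.050 for H2-Ab1 and -0.037 for H2-Eb1.

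Ciita was the member for which PM2.5 replicate 1 was lowest. It stood at 208, 331, 309, 389.7 and 354 CPM in PM2.5 macrophages, against 415, 309, 434, 369.7 and 311 CPM in air macrophages. Apart from the 208 CPM of replicate 1, the PM2.5 libraries lay within the range of the air libraries. The log2 fold change was -0.20 (95% interval -0.55 to 0.14), and it was -0.097 (SE 0.116) without replicate 1. Counted as an air library, as its treatment field has it, replicate 1 gave 0.013. The longest coding transcript of Ciita, 6007 bases, is the longest of the 10 and belongs to the long class that was low in this library. Those of the classical chains and Cd74 are between 1128 and 1669 bases. H2-DMb2, with 1483 bases, stood at 319 CPM in replicate 1, against 260 to 377 CPM in the other PM2.5 macrophages. H2-DMa, with 2005 bases, stood at 308 CPM, against 212 to 242 CPM. Whether transcript length bears on the levels of these genes was not tested.

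The H2-M and H2-O genes did not pass either. H2-DMa averaged 246 ± 36.9 CPM in PM2.5 macrophages and 254 ± 41.4 CPM in air macrophages (SD, n = 5 each). H2-Oa averaged 80.0 ± 12.6 CPM in PM2.5 macrophages and 85.2 ± 12.1 CPM in air macrophages, with a log2 fold change of -0.089, and H2-Ob averaged 377 ± 55.5 CPM in PM2.5 macrophages and 358 ± 54.4 CPM in air macrophages, with one of 0.080. H2-DMb2 had the highest value of the 10, 0.11, with an interval of -0.17 to 0.40. H2-DMa was at -0.045 and H2-DMb1 at -0.10. Without PM2.5 replicate 1 the values were -0.15 for H2-DMa, -0.17 for H2-DMb1, 0.084 for H2-DMb2, -0.19 for H2-Oa and 0.089 for H2-Ob. Without air replicate 3 they were 0.027 for H2-DMa, -0.034 for H2-DMb1, 0.11 for H2-DMb2, -0.049 for H2-Oa and 0.057 for H2-Ob.

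In macrophages 0 of the 10 genes were called, and 0% of the 15696 genes tested were called by edgeR. At an unadjusted p under 0.05 there were 0 of the 10 and 10.9% of all genes. DESeq2 called 175 genes in all, and 0 of the 10, and limma-voom called 0. The median log2 fold change of the 10 was -0.095, against 0.0062 for all genes tested, and 8 of the 10 were below 0, with library totals as with TMM, as were 48.6% of all genes. Without PM2.5 replicate 1 the median of the 10 was -0.18, against -0.0081 for all genes. Without air replicate 3 it was -0.0048, against -0.0017 for all genes. Of 10 conventional dendritic cell genes, 9 were below 0, 6 of them at an unadjusted p under 0.05. Their summed level was 535 to 681 CPM in PM2.5 macrophages and 589 to 978 CPM in air macrophages. Air replicates 1 and 3, which were high in the classical chains and Cd74, had the 2 highest sums, 933 and 978 CPM, while PM2.5 replicate 1 had 581 CPM. All 7 plasma cell genes were above 0, 6 of them at an unadjusted p under 0.05. Their summed level was 1290.0 to 4433 CPM in PM2.5 macrophages and 647 to 2169 CPM in air macrophages. Of 14 B cell genes, 11 were above 0, 1 of them at that p. Of 10 red pulp macrophage genes, 9 were below 0, 3 of them at that p. All 8 T cell genes were above 0, 4 of them at that p, and all 9 erythroid genes were above 0, 0 of them at that p. The part of these cells in the class II values was not tested.

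The difference between the 2 PM2.5 effects was tested in a joint fit of all 18 libraries. None of the 10 passed the threshold, against 1.46% of the 17779 genes tested. The values, macrophage effect minus spleen effect on the log2 scale, were highest for H2-Ob (0.32, 95% interval -0.090 to 0.73), H2-Oa (0.30, -0.083 to 0.69) and H2-DMb2 (0.30, -0.16 to 0.75). Ciita was lowest with -0.39 (95% interval -0.94 to 0.17). With library totals as the scaling these values were 0.18 for H2-Ob, 0.16 for H2-Oa, 0.16 for H2-DMb2 and -0.50 for Ciita. The smallest adjusted p was 0.363 in edgeR, for H2-Oa. With all libraries 8 of the 10 values were above 0, against 5 of the 10 without macrophage PM2.5 replicate 1.

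**Figure D3:**
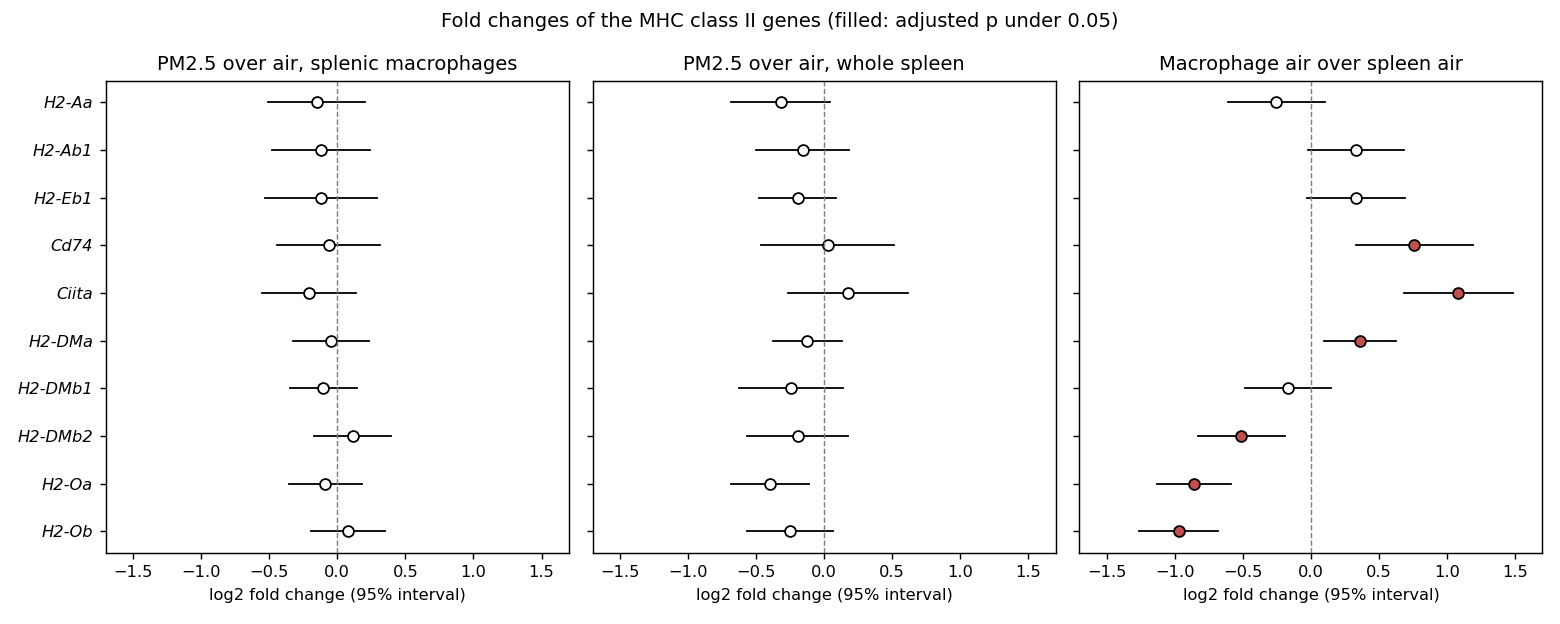
Log2 fold changes of the 10 genes with 95% intervals from edgeR, for PM2.5 over air in splenic macrophages, PM2.5 over air in whole spleen, and air macrophages over air spleens. Filled points have an adjusted p under 0.05: there are 0 in both PM2.5 comparisons and 6 between the preparations.

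The air groups show how isolated macrophages and whole spleen differed in the composition of the class II set. Transcripts of the transactivator and the invariant chain were higher in the macrophage libraries, and those of both H2-O chains were lower. The 2 preparations come from separate experiments, so preparation and experiment cannot be told apart. Cell content differed too. The summed level of 10 conventional dendritic cell genes was 535 to 978 CPM in macrophage libraries and 381 to 494 CPM in spleens. Of these genes 6 were called higher and 1 lower in air macrophages, against 33.3% of all genes tested in each direction. The part of dendritic cells in the class II values was not tested. Ciita stood at 415, 309, 434, 369.7 and 311 CPM in air macrophages, against 114, 211, 161 and 209 CPM in air spleens. Every air macrophage library lay above every air spleen. In the PM2.5 groups Ciita overlapped, with 208 to 390 CPM in macrophages and 169 to 241 CPM in spleens. The log2 fold change of Ciita between the air groups was 1.08 (SE 0.192, adjusted p = 6.60e-05 in edgeR). Cd74 averaged 7575 ± 1526 CPM in air macrophages and 4477 ± 1391 CPM in air spleens, so that the log2 fold change was 0.76 (SE 0.206; adjusted p = 0.00326). Its groups overlapped through macrophage replicate 2, with 5851 CPM, and spleen replicate 4, with 6055 CPM.

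H2-Ob stood at 412, 335, 344, 412 and 286 CPM in air macrophages, against 758, 708, 624 and 715 CPM in air spleens. H2-Oa stood at 97.3, 73.9, 96.2, 87.2 and 71.5 CPM in air macrophages, against 153, 134, 146 and 186 CPM in air spleens. For both chains of H2-O, every air macrophage library lay below every air spleen. The log2 fold changes were -0.97 for H2-Ob (SE 0.138, adjusted p = 5.40e-06 in edgeR) and -0.86 for H2-Oa (SE 0.129, adjusted p = 1.06e-05 in edgeR). The same held in the PM2.5 groups, where H2-Ob had 327 to 458 CPM in macrophages and 463 to 684 CPM in spleens, and H2-Oa had 64.5 to 99.3 CPM in macrophages and 105 to 131 CPM in spleens.

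The H2-M genes were split. H2-DMa was higher, with 254 ± 41.4 CPM in air macrophages and 198 ± 20.8 CPM in air spleens (log2 fold change 0.36, SE 0.126, adjusted p = 0.0169 in edgeR). H2-DMb2 was lower, with 283 ± 43.7 CPM in air macrophages and 403 ± 79.3 CPM in air spleens (log2 fold change -0.51, SE 0.153, adjusted p = 0.00658 in edgeR). H2-DMb1 did not pass, with -0.17. The classical chains did not pass either. H2-Aa had a log2 fold change of -0.25 (95% interval -0.61 to 0.10), H2-Ab1 one of 0.33 (-0.018 to 0.68) and H2-Eb1 one of 0.33 (-0.032 to 0.69). Of the 10 genes 6 were called, 3 higher and 3 lower, against 66.5% of all genes tested, 33.3% in each direction. Of all genes tested, 29.9% had every air macrophage library above every air spleen and 26.3% had every one below. With upper-quartile scaling the median of all genes moved to -0.29, against 0.00054 with TMM, and the split of the 10 became 1 higher and 5 lower. Under that scaling H2-DMa (0.064, adjusted p = 0.675) and Cd74 (0.46, adjusted p = 0.0536) no longer passed, while H2-Aa (-0.55, adjusted p = 0.00969) and H2-DMb1 (-0.47, adjusted p = 0.0124) did. With library totals the median of all genes was -0.22 and 2 of the 10 were higher and 5 lower: H2-DMa (0.14, adjusted p = 0.367) no longer passed, and H2-Aa (-0.46, adjusted p = 0.0185) and H2-DMb1 (-0.39, adjusted p = 0.0370) did, all in edgeR. Without spleen air replicates 3 and 4, H2-DMa (adjusted p = 0.0657) and H2-DMb2 (adjusted p = 0.120) did not pass.

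Single libraries decided some of these calls. H2-DMa did not pass without spleen air replicate 1 (adjusted p = 0.0815), 2 (0.0737) or 3 (0.118), or without macrophage air replicate 3 (0.137). H2-Ab1 passed without spleen air replicate 4 (adjusted p = 0.0435) or macrophage air replicate 2 (0.0369), H2-Eb1 without macrophage air replicate 2 (0.0389) and H2-Aa without macrophage air replicate 3 (0.0370), all in edgeR. With macrophage PM2.5 replicate 1 counted as air, H2-Ab1 (0.0345) and H2-Eb1 (0.0292) passed. H2-Oa, H2-Ob and Ciita passed, and Cd74 passed, with each library left out in turn.

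Ratios within a library do not depend on the scaling. The counts of the H2-O genes over those of the 3 H2-DM genes were 0.544 to 0.698 in PM2.5 macrophages, 0.534 to 0.675 in air macrophages, 0.924 to 1.06 in PM2.5 spleens and 0.933 to 1.29 in air spleens. All 10 macrophage libraries thus lay below all 8 spleens. H2-Aa over H2-Ab1 counts behaved likewise, with 0.948 to 1.06 in macrophages and 1.21 to 2.10 in spleens. Cd74 over H2-Ab1 counts was 3.29 to 3.83 in macrophages and 1.85 to 3.10 in spleens, with all macrophage libraries above. Within neither preparation did any of these 3 ratios separate PM2.5 from air.

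Set against 14 B cell marker genes, H2-O and the invariant chain differed. The summed CPM of H2-Oa and H2-Ob over the summed CPM of the B cell genes averaged 0.103 ± 0.00819 in PM2.5 macrophages, 0.109 ± 0.0104 in air macrophages (SD, n = 5 each), 0.107 ± 0.00533 in PM2.5 spleens and 0.112 ± 0.00847 in air spleens (SD, n = 4 each). The 4 groups overlapped, from 0.0928 to 0.124 over the 18 libraries. The summed B cell level itself was 3844 to 5795 CPM in PM2.5 macrophages, 3314 to 5089 CPM in air macrophages, 5306 to 7391 CPM in PM2.5 spleens and 7295 to 8365 CPM in air spleens. Cd74 over the same B cell sum averaged 1.67 ± 0.527 in PM2.5 macrophages, 1.89 ± 0.515 in air macrophages, 0.694 ± 0.0716 in PM2.5 spleens and 0.578 ± 0.147 in air spleens, and every macrophage library, from 1.15 upward, lay above every spleen, at most 0.769. These ratios are descriptions, and no test was made on them.

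**Figure D4:**
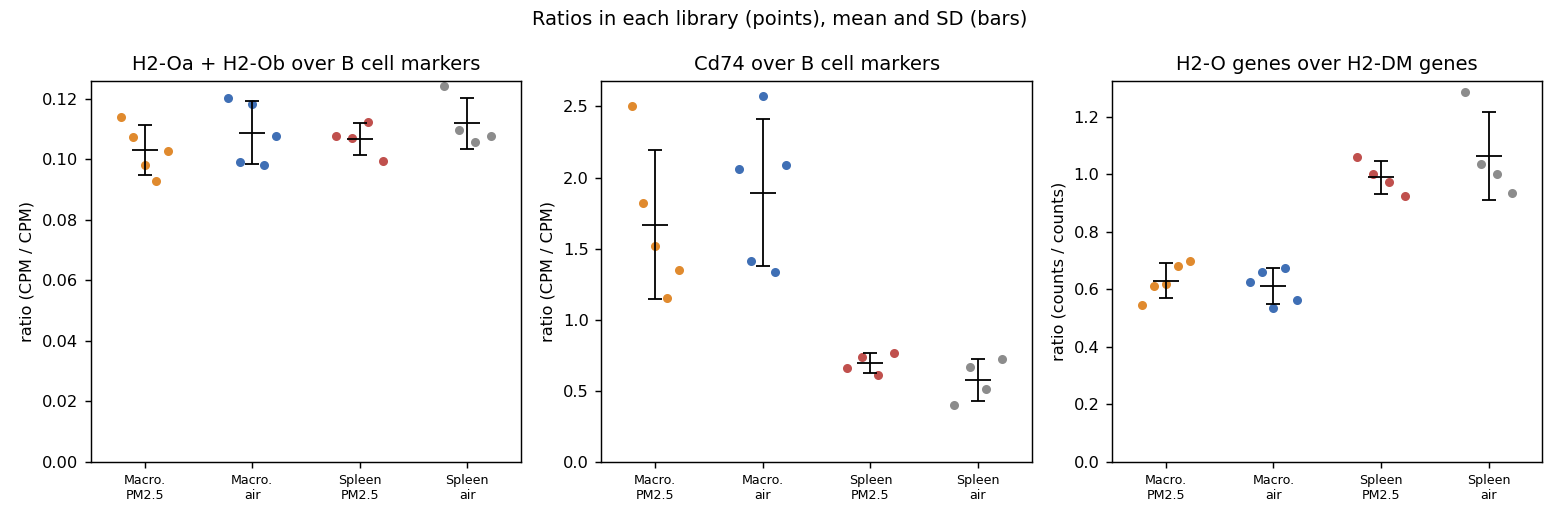
Ratios in each library, with bars for mean and SD: summed H2-Oa and H2-Ob over summed B cell markers, Cd74 over summed B cell markers, and summed H2-O genes over summed H2-DM genes. The first ratio overlaps across the 4 groups between 0.0928 and 0.124, the second is higher and the third lower in every macrophage library than in any spleen library.

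The genes that serve the class II pathway were counted from lists chosen by function. In whole spleen after PM2.5, 0 of 19 regulators, 0 of 13 processing genes, 0 of 8 partners and 0 of 13 genes of the class I pathway were called. The smallest p-values belonged to Pax5, a B cell transcription factor (log2 fold change -0.59, adjusted p = 0.126 in edgeR), and Psmb8, an immunoproteasome subunit of the class I pathway (-0.44, adjusted p = 0.126). Pax5 averaged 599 ± 44.1 CPM in PM2.5 spleens and 899 ± 165 CPM in air spleens (SD, n = 4 each). March8, a ubiquitin ligase that removes class II from the surface, had a log2 fold change of 1.99 (adjusted p = 0.141), and Mif, a ligand of the invariant chain, one of -0.53 (adjusted p = 0.149). H2-Eb2, a further class II beta gene of the locus, had one of -0.28 (adjusted p = 0.291). In macrophages after PM2.5 the same lists also had 0 called, and the smallest p belonged to Nfyb, a subunit of the factor that binds the Y box (0.18, adjusted p = 0.396).

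Between the preparations, all 13 processing genes were higher in air macrophages than in air spleens, against 33.3% of all genes tested, and 12 of them passed with upper-quartile scaling. Ctsb and Ctsd, lysosomal proteases, had log2 fold changes of 3.61 and 2.17, and Lgmn, which cuts proteins and the invariant chain in the endosome, had one of 3.11. Ctss, the protease that trims the invariant chain in B cells and dendritic cells, had one of 1.24. Ifi30, the thiol reductase of the pathway, had one of 0.67. The other 8, Ctsl, Ctsh, Ctsz, Cst3, Sppl2a, March1, March8 and Cd83, had values from 0.57 for Ctsl to 3.12 for March8. Several of these genes also serve lysosomes at large.

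Of the 19 regulators, 7 were higher and 5 lower in air macrophages. Of all genes tested 33.3% were called in each direction, and 66.5% in all. With upper-quartile scaling or library totals, 6 regulators were higher and 8 lower. Among the higher were Prdm1 (2.58), Spi1 (2.14), Ifngr1 (1.55), Jak2 (1.09), Irf8 (0.75) and Jak1 (0.33), which include a chain of the interferon-gamma receptor and kinases that act at it. Lower were Socs1 (-1.69), Pax5 (-1.23), Nfyb (-0.65), Irf1 (-0.49) and Rfxank (-0.46), of which Rfxank and Nfyb encode subunits of the factors at the X and Y boxes. Rfx5, another X box subunit, did not pass (-0.16). Of the 8 partners 4 were higher and 3 lower, against the same 33.3% in each direction, and 4 and 4 with either of those scalings. Cd86 (2.62), Lag3 (2.29), Cd44 (2.07) and Cd80 (1.75) were higher and Mif (-1.21), Cd40 (-0.93) and Icosl (-0.35) lower. Of the 13 genes of the class I pathway 6 were higher and 4 lower, against 33.3% in each direction, with 3 higher and 6 lower under upper-quartile scaling and 4 higher and 6 lower with library totals. Calr (0.91), Canx (0.81), Erap1 (0.79), H2-D1 (0.55), Pdia3 (0.52) and Tapbp (0.32) were higher, and Psmb8 (-0.79), Psmb9 (-0.59), Tap1 (-0.41) and H2-K1 (-0.38) lower. All these are log2 fold changes with an adjusted p under 0.05 in edgeR unless stated.

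Within groups, some pairs of class II genes varied together from library to library. Levels were centred on their group as log2(CPM + 1), so that the correlation describes the variation among replicates. H2-Ab1 and H2-DMa had the highest Pearson r of any pair, 0.98. H2-Eb1 had an r of 0.89 with H2-Aa and 0.88 with H2-Ab1, and Cd74 one of 0.87 with H2-Ab1, 0.64 with H2-Eb1 and 0.39 with H2-Aa. H2-Oa went with the classical chains, with 0.83 for H2-Ab1, more than with its partner H2-Ob, 0.52. Over all 18 libraries, Ciita had values from -0.14 for H2-Aa to 0.49 for H2-DMb2. These are descriptions over 18 libraries that share depth, scaling and cell content, and macrophage PM2.5 replicate 1 is among them. That library had the lowest Ciita level of its group, 208 CPM, and the highest H2-Ab1 level, 2588 CPM. Among air macrophages, replicates 1 and 3 had the highest levels of both genes. No correlation was computed without macrophage PM2.5 replicate 1, so its part in the Ciita values was not tested.

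**Figure D5:**
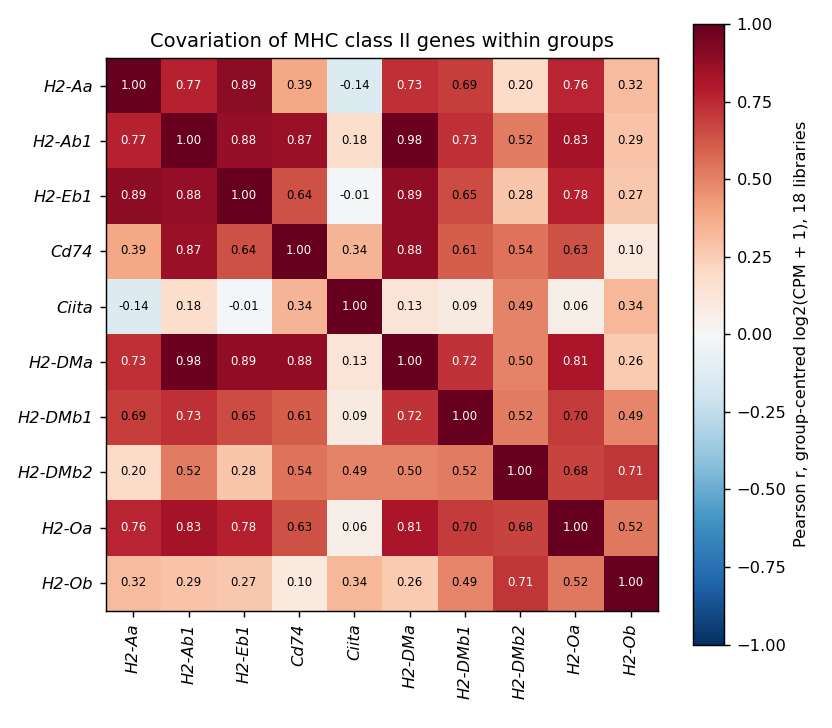
Pearson correlation between the 10 genes over 18 libraries, computed on log2(CPM + 1) after subtracting each group's mean. H2-Ab1 with H2-DMa at 0.98 is the highest value, Cd74 has 0.87 with H2-Ab1 and 0.39 with H2-Aa, and the Ciita row stays at or below 0.49.

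By the same measure, 9777 genes with a mean of at least 10 CPM were compared with the mean of H2-Aa, H2-Ab1, H2-Eb1 and Cd74. Among the 8 most alike were Arl5c (r = 0.87), Tmem176a (0.86), Lsp1 (0.84), Tmem176b (0.80), Syngr2 (0.79), Psmb9 (0.79) and Ccl5 (0.79). For H2-Ob they were Slc28a2 (0.95), Ero1lb (0.94) and Xkrx (0.92), and for H2-Oa Cyp4f13 (0.85), Arl5c (0.85) and Spint2 (0.84). For H2-DMa they were Arl5c (0.85), Syngr2 (0.81) and Lsp1 (0.81), and for Ciita Sema4d (0.92), Orai2 (0.89) and Sipa1l3 (0.89). These values include macrophage PM2.5 replicate 1, in which Ciita and the class of long transcripts were low. They were not computed without it, so its part in these likenesses was not tested.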

How the data were processed

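Libraries had been prepared (NEBNext Ultra II) from RNeasy-purified RNA, per the labels' protocols. The deposited table holds raw counts, whole reads per Ensembl gene without normalization, made by the authors with HTSeq 0.10.0 after FastQC 0.10.1 on builds named mm10 and GRCm38, per the submitters' processing notes. The sources used here do not give the aligner or strand setting. Of 55414 identifiers, 52081 had a GENCODE M21 symbol. Groups were taken from sample titles. The 10 genes, the lists and the rule for named genes were chosen with earlier results of these data known. Named were the 10 genes, every called list gene, otherwise up to 3 per list by p, and the genes most alike; some genes that meet this rule are not reported here.

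Counts were tested in R 4.3.3 with edgeR 4.0.16: filterByExpr (minimum count 10, minimum total 15), TMM scaling, quasi-likelihood F test, two-sided, Benjamini-Hochberg over all genes tested, threshold 0.05. Each experiment was fitted alone, and the difference and the preparation comparison in a joint fit of 18 libraries. Levels are CPM scaled over all libraries. TPM used the exonic length of all annotated transcripts together, and the longest coding transcript as an alternative chosen after seeing the data. The split by transcript length and scaling by library totals without TMM factors were also chosen after seeing the data. Other alternatives were DESeq2 1.42.0, limma-voom (limma 3.58.1), other scalings, no filter, a replicate block and omitted libraries. No library was a copy of another of its group. On simulated data the spleen test recovered 37.3% of 75 genes changed 2-fold and 0 of 55 changed 1.5-fold, and the macrophage test 70.4% of 54 and 44.6% of 74. Of the calls there, 9.89% in the spleen test and 2.82% in the macrophage test were of unchanged genes. P-values measure only the spread between these samples. Promoter sequences are from RefSeq, build GRCm38.p6.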

Additional observations from a re-analysis of the deposited data

Results flagged for a closer look

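Over 120 groups of libraries examined, 6 held 1 library far from the others, and chance flags about 1 in 20. In PM2.5 macrophages, replicate 1 had 9924 CPM of Cd74, against 6048 to 7008 CPM in the other PM2.5 macrophages. The same library had a ratio of Ciita to H2-Ab1 counts of 0.0802, against 0.171 to 0.197 in the others. It is also the library with the conflicting treatment label and the low level of long transcripts.

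In air macrophages, replicate 4 had a summed plasma cell level of 2169 CPM, against 647 to 1044 CPM in the others. In air spleens, replicate 1 stood apart in 3 sums of cell markers. It had 659 CPM of red pulp macrophage genes, against 340.1 to 391 CPM in the other air spleens. It had 76.7 CPM of neutrophil genes, against 3.41 to 5.06 CPM, and 2866 CPM of erythroid genes, against 337 to 698 CPM. This spleen also had the highest H2-Aa level of the 8, 3348 CPM, and the lowest Cd74 and Ciita levels, 2949 and 114 CPM. Whether the cell content bears on these levels was not tested.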

How the results depend on the processing

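The count of class II genes called was 0 under every alternative in spleen (18), macrophages (19) and their difference (28), and 4 to 8 between the preparations (27). The labels state no pairing by replicate number. Same-numbered libraries, centred on their group, correlated at -0.132 to 0.0555 in spleen and -0.143 to 0.274 in macrophages. PM2.5 macrophage replicates 4 and 5 and PM2.5 spleen replicate 3 were most alike to the air library of the same number. Such correlations cannot exclude a pairing. The replicate block called 91 genes in all for the difference, against 259. Between the preparations the block fit compared the fitted levels at replicate number 1 of each experiment, not the group means. There it called 7140 genes, against 11831, and H2-DMb2 did not pass (-0.27, adjusted p = 0.390 in edgeR). That fit is therefore not a like-for-like alternative of the preparation comparison. Counts over all genes moved more than those of the class II genes. In spleen, where edgeR called 2, DESeq2 called 830, the fit without a filter 461, the joint fit 1050, DESeq2 size factors 1, library totals 1, limma-voom 1, and 0 were called without air replicates 3 and 4 or without PM2.5 replicates 2 and 4 (0 to 219 with 1 library left out). In macrophages, DESeq2 called 175 and the fit without a filter 1 (0 to 17 with 1 library left out). For the difference, DESeq2 called 1044, limma-voom 3, and 87 were called with macrophage PM2.5 replicate 1 counted as air, 9 without spleen air replicates 3 and 4 and 48 without spleen PM2.5 replicates 2 and 4 (68 to 1317 with 1 library left out).

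Some values changed sign. Library totals as the scaling, chosen after seeing the data, gave 0.0068 for H2-DMa in spleen and, in the difference, -0.10 for H2-Ab1, -0.071 for H2-Eb1, -0.065 for H2-DMa and -0.0079 for H2-DMb1. With macrophage PM2.5 replicate 1 counted as air, Ciita in macrophages was 0.013, and in the difference H2-Ab1 was -0.13, H2-Eb1 -0.14 and H2-DMa -0.075. Without spleen air replicates 3 and 4, H2-DMb2 in spleen was 0.0075 and H2-Ab1 in the difference -0.035. Without spleen PM2.5 replicates 2 and 4, the difference was -0.017 for H2-Ab1, -0.011 for H2-Eb1 and -0.094 for H2-DMb1, and without a filter it was -0.0086 for H2-Ab1. With 1 library left out, Cd74 ranged from -0.14 to 0.21 in spleen and -0.22 to 0.028 in macrophages, where H2-DMa ranged from -0.15 to 0.027 and H2-Ob from -0.0059 to 0.14. In the difference, Cd74 ranged from -0.28 to 0.057, H2-Ab1 from -0.086 to 0.16, H2-DMb1 from -0.021 to 0.30, H2-Eb1 from -0.071 to 0.20 and H2-DMa from -0.024 to 0.16. The cause was not tested.

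Between the preparations, both H2-O genes and Ciita passed under every alternative, and Cd74 under all except upper-quartile scaling. The replicate block is counted among these, with the limit given above.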
